A study of Mus musculus with 9 samples.

Results

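The NRF2 pathway was followed through 10 named genes in D2.OR cells, an established mouse mammary tumor line known for staying dormant after it seeds other organs. The genes were Hmox1, Slc7a11, Gclc, Gclm, Nqo1, Txnrd1, Srxn1, Nfe2l2, Keap1 and G6pdx. They were chosen by name, with earlier results of these data known. Of the 10, 9 had a probe set among the 19938 genes measured. G6pdx was not analysed here, because the platform annotation used listed no probe set for it. The 9 arrays cover 3D cultures on 3 matrices, with 3 arrays each: collagen I that had formed fibrils (fibrillar), collagen I that had not (non-fibrillar), and Matrigel, a laminin-rich extract of basement membrane. The Matrigel group rests on sample titles, since the growth label of its arrays gives the non-fibrillar form of collagen I, and Matrigel is absent from the design text. No agent, genotype or age is given for any group, and all arrays come from the same line. Nothing in the labels says that replicates were separate cultures. The p-values set group differences against the spread among these arrays, and that spread may be technical.

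NRF2, encoded by Nfe2l2, is a transcription factor that is made continuously and destroyed through KEAP1, an adaptor that hands it to a CUL3 ubiquitin ligase. Oxidants and electrophiles modify KEAP1, NRF2 escapes, pairs with small MAF proteins and binds antioxidant response elements in its target genes. The targets rebuild glutathione and thioredoxin, detoxify quinones and break down heme. Its activity is set largely by protein stability, which expression arrays do not read.

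Values are log2 expression from robust multi-array averaging (RMA), 1 probe set per gene, so a difference of 1 is a 2-fold change. A gene passed at an adjusted p under 0.05 in limma, with Benjamini-Hochberg adjustment over all 19938 genes. The arrays had close medians (5.98 to 6.05 over 35512 probe sets). Of 8 epithelial markers 5 averaged above 6.44, the mean of the array medians over genes, while Epcam (5.84 to 6.24), Krt19 (5.14 to 5.45) and Cldn4 (5.71 to 5.97) lay below it. The epithelial list mean was 8.73 to 8.76 in fibrillar collagen, 8.77 to 8.79 in non-fibrillar collagen and 8.5 to 8.55 in Matrigel, so every Matrigel array was below every collagen array. Among its keratins, Krt18 read 12.82 to 12.9, 12.88 to 12.92 and 12.6 to 12.65 in those groups, Krt8 read 13.23 to 13.33, 13.22 to 13.32 and 13.12 to 13.14, and Krt7 read 10.34 to 10.4, 10.66 to 10.68 and 9.42 to 9.5. E-cadherin, Cdh1, overlapped between the groups, with 9.06 to 9.11, 9 to 9.1 and 9.02 to 9.12. Of 8 macrophage markers 0 averaged above that median, and of 6 endothelial markers 0. The list mean of the macrophage markers was 4.68 to 4.74 in fibrillar collagen, 4.66 to 4.72 in non-fibrillar collagen and 4.64 to 4.76 in Matrigel. Of 8 fibroblast and adipocyte markers only the receptor Pdgfra averaged above the median. RNA was measured in bulk, so fewer cells of a kind and less RNA per cell cannot be told apart.

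By group means, the targets that differed did not all share 1 order: Hmox1, Slc7a11, Gclm and Srxn1 had their highest mean in Matrigel, and Nqo1 in non-fibrillar collagen. Nqo1 did not pass between non-fibrillar collagen and Matrigel (limma, adjusted p = 0.160). Of the 9 genes, Hmox1, Slc7a11, Gclm, Srxn1 and Nqo1, 5 in all, passed a limma F test across the 3 matrices, which 15% of all genes passed. Their adjusted p was 6.85e-05 for Hmox1, 0.00135 for Slc7a11, 0.00503 for Gclm, 0.0348 for Srxn1 and 0.0353 for Nqo1. The F calls of Nqo1 and Srxn1 were lost with quantile normalization again (0.114 and 0.0627), that of Srxn1 also with centring on array medians (0.0818). Nqo1 lost it without any array but non-fibrillar replicate 1 or Matrigel replicate 1 (0.0533 to 0.0947). Srxn1 lost it without any array but fibrillar replicate 3 or Matrigel replicate 3 (0.0538 to 0.111). Gclc, Txnrd1, Nfe2l2 and Keap1 did not pass, with adjusted p from 0.431 for Gclc to 0.962 for Keap1.

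**Figure D1:**
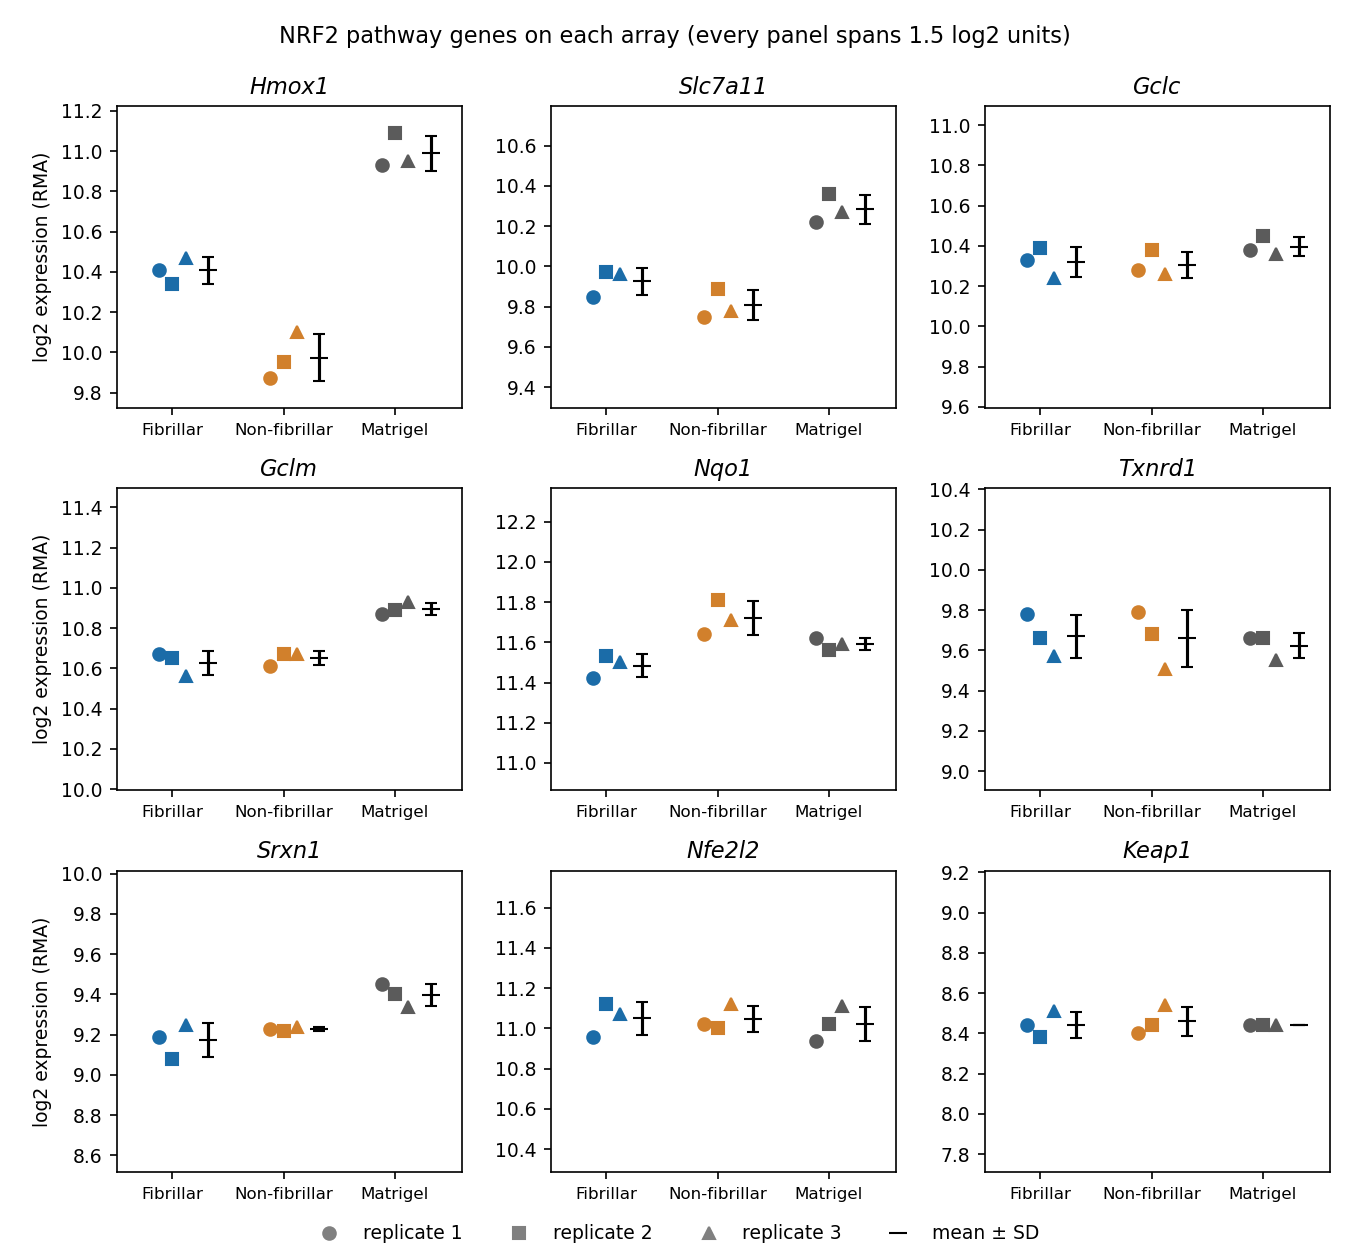
Log2 expression (RMA) of the 9 measured genes on each of 9 arrays, 3 for each matrix. Symbols mark the replicate number, and the bar at the right of each group is its mean ± SD (n = 3). Hmox1 forms 3 separate groups, at 10.34 to 10.47, 9.87 to 10.1 and 10.93 to 11.09, whereas Nfe2l2 and Keap1 overlap in all of them.

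Hmox1 encodes the inducible heme oxygenase, which opens the heme ring and releases iron, carbon monoxide and biliverdin. It read 10.41, 10.34 and 10.47 in fibrillar collagen, 9.87, 9.95 and 10.1 in non-fibrillar collagen, and 10.93, 11.09 and 10.95 in Matrigel. The 3 groups did not overlap, and the order was Matrigel, then fibrillar, then non-fibrillar collagen. Cells in non-fibrillar collagen had 2.03-fold lower Hmox1 than cells in Matrigel (log2 difference -1.02 ± 0.068 SE, adjusted p = 2.13e-05), and this was the 51st smallest p among all genes. Cells in fibrillar collagen had 1.5-fold lower Hmox1 than cells in Matrigel (-0.59 ± 0.068, adjusted p = 0.00193). Between the collagens Hmox1 was 1.35-fold higher in the fibrillar form (0.43 ± 0.067, adjusted p = 0.0196). That last call was lost when any collagen array other than non-fibrillar replicate 3 was left out (adjusted p 0.0635 to 0.0897 over those 5 refits), while the difference stayed between 0.38 and 0.49.

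Pdgfra, the fibroblast marker that these cells express, moved in the same order as Hmox1. It read 10.81, 10.94 and 11 in fibrillar collagen, 10.16, 10.12 and 10.44 in non-fibrillar collagen and 11.11, 11.36 and 11.28 in Matrigel. The other 7 markers of its list averaged below the median, including Dcn (4.32 to 4.58) and Lum (3.21 to 3.51). The list mean was 5.78 to 5.9 in fibrillar collagen, 5.71 to 5.76 in non-fibrillar collagen and 5.81 to 5.94 in Matrigel, and its part in the Hmox1 result was not tested.

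Slc7a11 is the transport chain of the cystine and glutamate antiporter that brings in cystine for glutathione. It read 9.85, 9.97 and 9.96 in fibrillar collagen, 9.75, 9.89 and 9.78 in non-fibrillar collagen, and 10.22, 10.36 and 10.27 in Matrigel. Every collagen array lay below every Matrigel array, and the collagen groups overlapped. The gene was 1.28-fold lower in fibrillar collagen than in Matrigel (-0.36 ± 0.057, adjusted p = 0.00946) and 1.39-fold lower in non-fibrillar collagen than in Matrigel (-0.48 ± 0.057, adjusted p = 5.91e-04). Between the collagens the difference was 0.12 ± 0.055 (adjusted p = 0.271), with a 95% interval from -0.012 to 0.253. Slc3a2, the heavy chain that carries Slc7a11 to the membrane, was 1.09-fold lower in non-fibrillar collagen than in Matrigel (-0.12 ± 0.036, adjusted p = 0.0453). It is named here for that role, after its values were seen. Its call was lost when any array of either group compared was left out. The call was also lost with only the 6 arrays compared, with the replicate block and with centring on array medians. Adjusted p over these limma refits reached 0.188.

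Glutamate-cysteine ligase makes the first bond of glutathione and consists of a catalytic chain, Gclc, and a modifier chain, Gclm, that improves its kinetics. Gclm read 10.67, 10.65 and 10.56 in fibrillar collagen, 10.61, 10.67 and 10.67 in non-fibrillar collagen, and 10.87, 10.89 and 10.93 in Matrigel. All collagen arrays were below all Matrigel arrays. Gclm was 1.20-fold lower in fibrillar collagen than in Matrigel (-0.27 ± 0.044, adjusted p = 0.0107) and 1.18-fold lower in non-fibrillar collagen than in Matrigel (-0.24 ± 0.044, adjusted p = 0.00508). The collagens differed by -0.022 ± 0.043 (adjusted p = 0.804, 95% interval -0.126 to 0.081). Gclc read 10.33, 10.39 and 10.24 in fibrillar collagen, 10.28, 10.38 and 10.26 in non-fibrillar collagen, and 10.38, 10.45 and 10.36 in Matrigel. Its groups overlapped in every comparison, with differences of -0.078 ± 0.052 for fibrillar collagen and -0.092 ± 0.052 for non-fibrillar collagen against Matrigel (adjusted p = 0.480 and 0.324). Whether Gclm moved more than Gclc was not tested.

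Srxn1, sulfiredoxin, repairs peroxiredoxins that peroxide has overoxidised. It read 9.19, 9.08 and 9.25 in fibrillar collagen, 9.23, 9.22 and 9.24 in non-fibrillar collagen, and 9.45, 9.4 and 9.34 in Matrigel. Both collagen groups lay below the Matrigel arrays. Srxn1 was 1.16-fold lower in fibrillar collagen than in Matrigel (-0.22 ± 0.051, adjusted p = 0.0469), a call that was lost when any array of these groups but fibrillar replicate 3 was left out (adjusted p 0.0614 to 0.127). It was also lost with only the 6 arrays compared (0.118), with quantile normalization again (0.0878) and with centring on array medians (0.0958). For non-fibrillar collagen against Matrigel the difference was -0.17 ± 0.051 (adjusted p = 0.0599, and 0.0472 with only those 6 arrays). The collagens differed by -0.053 ± 0.050 (adjusted p = 0.586).

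Nqo1 reduces quinones without forming radicals and is widely used as a readout of NRF2. Its highest mean was in non-fibrillar collagen, whereas Hmox1, Slc7a11, Gclm and Srxn1 had theirs in Matrigel. It read 11.42, 11.53 and 11.5 in fibrillar collagen, 11.64, 11.81 and 11.71 in non-fibrillar collagen, and 11.62, 11.56 and 11.59 in Matrigel. The non-fibrillar arrays were the highest and the fibrillar arrays the lowest, with no overlap between any 2 groups. Fibrillar against non-fibrillar collagen gave -0.24 ± 0.056 (adjusted p = 0.0607), and the difference passed with a replicate block (adjusted p = 0.0412), which pairs same-numbered arrays of the collagens. It also passed when all 9 arrays shared 1 fit (0.0237), but not with quantile normalization again (0.127). Against Matrigel the differences were -0.11 ± 0.053 for fibrillar and 0.13 ± 0.053 for non-fibrillar collagen (adjusted p = 0.315 and 0.160). In these arrays Hmox1 was therefore higher, and Nqo1 lower, in every fibrillar array than in any non-fibrillar array.

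Txnrd1, the cytosolic selenoprotein that reduces thioredoxin, read 9.78, 9.66 and 9.57 in fibrillar collagen, 9.79, 9.68 and 9.51 in non-fibrillar collagen, and 9.66, 9.66 and 9.55 in Matrigel. The 3 groups overlapped, and replicate 3 was the lowest array in each of the 3 groups, as it was for Gclc. Fibrillar collagen differed from non-fibrillar collagen by 0.011 ± 0.085 and from Matrigel by 0.047 ± 0.078, and non-fibrillar collagen from Matrigel by 0.037 ± 0.078 (adjusted p from 0.794 to 0.955). The widest 95% interval of these, for the collagens, ran from -0.193 to 0.214.

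The regulators themselves did not pass. Nfe2l2 read 10.96, 11.12 and 11.07 in fibrillar collagen, 11.02, 11 and 11.12 in non-fibrillar collagen, and 10.94, 11.02 and 11.11 in Matrigel. Its differences were 0.001 ± 0.055 between the collagens, and 0.025 ± 0.060 and 0.024 ± 0.060 for the fibrillar and the non-fibrillar form against Matrigel. The 95% intervals stayed between -0.132 and 0.159. Keap1 read 8.44, 8.38 and 8.51 in fibrillar collagen, 8.4, 8.44 and 8.54 in non-fibrillar collagen, and 8.44 on each of the 3 Matrigel arrays. Its differences were -0.014 ± 0.054, 0.0040 ± 0.050 and 0.018 ± 0.050 for the same comparisons, with intervals between -0.143 and 0.129. Adjusted p was 0.866 or more for Nfe2l2 and 0.884 or more for Keap1.

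The plot of differences shows all 27 contrasts together. Between the collagens 1 of 9 genes was higher in the fibrillar form and 0 were lower (limma). Of all genes 2.71% were higher and 3.69% lower, 6.4% in either direction. At an unadjusted limma p under 0.05 there were 2 of the 9. At least 4256 of the 19938 genes lay under that cut, the rank by p of Prdx1, a gene outside the 9, at 0.0485. The exact share was not counted. With the replicate block 2 of 9 passed, where 1285 of all 19938 genes did. In fibrillar collagen against Matrigel 4 of 9 were lower and 0 higher, where 2.37% and 1.45% of all genes were, 3.82% in either direction. In non-fibrillar collagen against Matrigel 3 of 9 were lower and 0 higher, where 7.07% and 6.75% were, 13.8% in either direction. Groups did not overlap for 2, 5 and 5 of the 9 genes in these comparisons, against 25.2%, 20.4% and 28.4% of all genes. The median difference of the 9 genes was 0.001, -0.11 and -0.092, beside a median over all genes of 0.0080, 0.0028 and 0.00060. The comparisons with Matrigel share the same Matrigel arrays and are not independent of each other. The epithelial list mean also separated both collagens from Matrigel, and its part in these counts was not tested. The labels give no processing batch, and one that went with the matrix cannot be told apart from it.

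**Figure D2:**
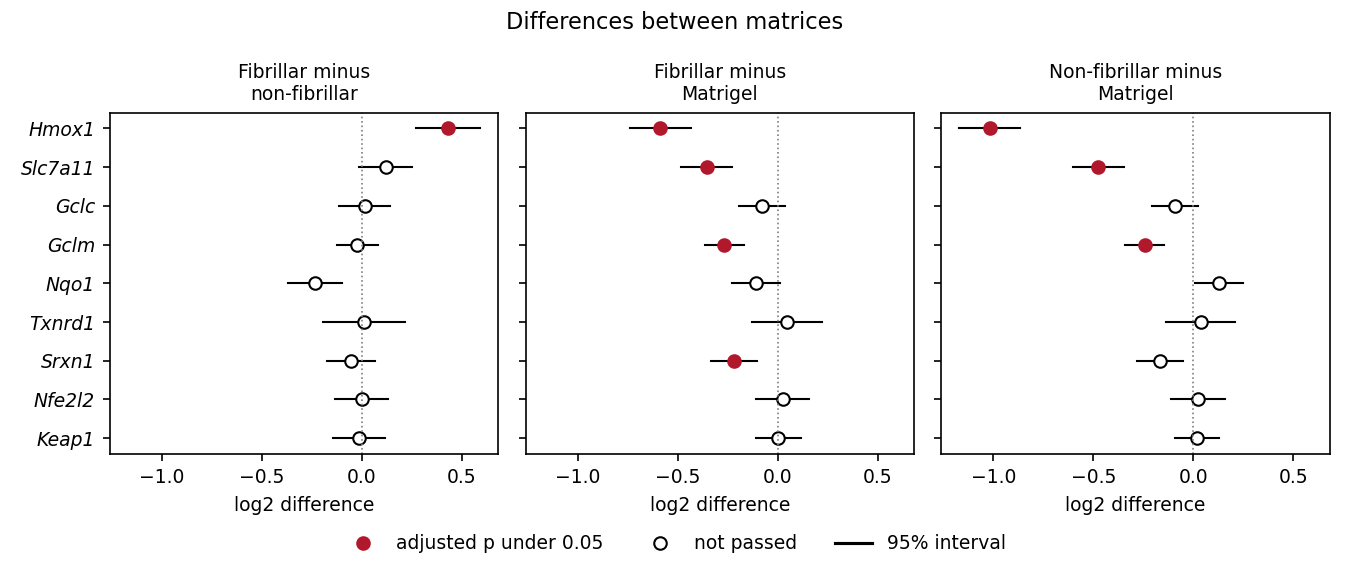
Log2 differences of the 9 genes for fibrillar minus non-fibrillar collagen, fibrillar collagen minus Matrigel and non-fibrillar collagen minus Matrigel, with 95% intervals from limma (n = 3 arrays per group). Filled points passed an adjusted p of 0.05, and they number 1, 4 and 3 of 9.

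The letters of the antioxidant response element were looked for in the promoters, because Slc7a11, Gclm and Srxn1 were all lower in fibrillar collagen than in Matrigel. RefSeq promoter windows (GRCm38.p6, 250 bases before to 50 after the start site) matched 8 of the 10 genes by symbol, Hmox1 and Gclc being the others, with 10 windows in all since Txnrd1 has 3. Both strands were searched for TGACNNNGC, the core of the element, and for TGAGNNNGC, its variant with G, and a stretch that matches one cannot match the other on the same strand. At least 1 of these was found in 6 of the 8 genes and in 30.8% of all 27025 genes with a window. The 6 were Gclm, Srxn1, Slc7a11, Nfe2l2, Txnrd1 and G6pdx, the last without a probe set. The genes were chosen as NRF2 pathway genes, so this share says nothing about the matrices. TGATGCAA, the core of the amino acid response element bound by ATF4, was searched too, because Slc7a11 is also known as an ATF4 target. It was in 1 of the 8 genes and in 1.03% of all genes. These are matches of letters, not shown to be bound here.

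Sequence before a start site is given for the 3 targets that had a window and lay below every Matrigel array in both collagens, 5′ to 3′ on the gene's strand. Capitals mark matches to any of the 3 searched cores. Gclm (chr3:122245307-122245486, plus strand) is shown up to the gene's annotated span, which begins 70 bases before the start site of its window, and has 1 match to TGACNNNGC on the opposite strand, first base at -134 with the start site as 0. Srxn1 (chr2:152105274-152105523, plus strand) is shown over 250 bases. It has 2 matches to TGAGNNNGC here, at -158 on the opposite strand and at -45 on the gene's strand. The Slc7a11 window belongs to a start site that lies 55474 bases inside the gene's annotated span, so the annotation also holds a start upstream of it. The window has 1 match to TGAGNNNGC, at -97 on the opposite strand. It also has 2 to TGATGCAA, at -66 on the gene's strand and at -47 on the opposite strand. The matches at -97 and -66 are shown with 10 bases on each side (chr3:50443692-50443720 and chr3:50443662-50443689, minus strand).
Gclm: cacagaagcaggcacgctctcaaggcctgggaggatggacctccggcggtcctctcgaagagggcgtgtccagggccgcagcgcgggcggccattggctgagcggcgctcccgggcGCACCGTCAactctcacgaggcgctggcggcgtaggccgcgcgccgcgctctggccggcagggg
Srxn1: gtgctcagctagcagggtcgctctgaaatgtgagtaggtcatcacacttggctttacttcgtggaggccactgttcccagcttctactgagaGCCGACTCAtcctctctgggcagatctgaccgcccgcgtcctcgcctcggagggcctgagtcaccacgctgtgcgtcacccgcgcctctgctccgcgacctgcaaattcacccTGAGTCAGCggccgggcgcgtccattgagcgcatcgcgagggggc
Slc7a11: taatgttggcGCTTTCTCAagctggagtt
Slc7a11: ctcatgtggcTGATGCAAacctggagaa

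For comparison, matches to TGACNNNGC in genes that did not pass the F test are shown with 10 bases on each side. Nfe2l2 (chr2:75704885-75704913, minus strand) has its match at -240, and 1 of the 3 Txnrd1 windows, whose start site lies 25255 bases inside the annotated gene, (chr10:82859104-82859132, plus strand) has one at -92, on the opposite strand. Nqo1 and Keap1 had 0 matches to the searched cores in their windows, which says only that these letters are not there. A match to TGACNNNGC was thus present in genes that passed the F test (Gclm and Srxn1) and in genes that did not (Nfe2l2 and Txnrd1). The Srxn1 match is at 28, after the start site and on the opposite strand, and is not shown. Slc7a11 and Nqo1, which passed, and Keap1, which did not, had no match to TGACNNNGC.
Nfe2l2: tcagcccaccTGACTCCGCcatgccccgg
Txnrd1: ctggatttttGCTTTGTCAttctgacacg

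Of 30 other reported NRF2 targets 28 were measured. In non-fibrillar collagen against Matrigel 7 were lower, 0 higher and 21 did not pass, where 7.07% of all genes were lower and 6.75% higher. The largest of these differences was in Ephx1, microsomal epoxide hydrolase, which read 7.62, 7.53 and 7.74 in non-fibrillar collagen against 8.58, 8.59 and 8.72 in Matrigel. It was 2-fold lower (-1 ± 0.068, adjusted p = 2.41e-05). The carboxylesterase Ces2g was 1.62-fold lower (-0.70 ± 0.061), the aldehyde dehydrogenase Aldh3a1 1.48-fold lower (-0.56 ± 0.077) and the NADPH-forming isocitrate dehydrogenase Idh1 1.26-fold lower (-0.34 ± 0.045). Aldehyde oxidase Aox1 (-0.29 ± 0.070, adjusted p = 0.0209) and the ferritin light chain Ftl1 (-0.23 ± 0.042, adjusted p = 0.00550) were lower too. The Aox1 call was lost without any non-fibrillar array or without Matrigel replicate 1 (adjusted p up to 0.0688). Ces2g and Ftl1 have close relatives in the genome, so their probe sets may read more than 1 gene.

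In fibrillar collagen against Matrigel 4 of the 28 were lower, 0 higher and 24 did not pass, where 2.37% of all genes were lower and 1.45% higher. They were Ephx1 (-0.42 ± 0.068, 1.34-fold), Aldh3a1 (-0.41 ± 0.077, 1.33-fold), Idh1 (-0.31 ± 0.045, 1.24-fold) and Ftl1 (-0.21 ± 0.042, 1.16-fold). Aldh3a1 lost its call without fibrillar replicate 1 or 2 or Matrigel replicate 2 or 3 (adjusted p up to 0.0749). Ftl1 lost its call without fibrillar replicate 1 or 2 or Matrigel replicate 1 or 2, and with only the 6 arrays compared (up to 0.0875). Between the collagens 2 were higher in the fibrillar form, 1 lower and 25 did not pass, beside 2.71% and 3.69% of all genes. Ephx1 was 1.49-fold higher (8.15, 8.17 and 8.31 in fibrillar against 7.62, 7.53 and 7.74 in non-fibrillar collagen, 0.58 ± 0.069, adjusted p = 0.0107). Ces2g was 1.51-fold higher (9.05, 8.88 and 9.02 against 8.35, 8.32 and 8.49, 0.60 ± 0.067, adjusted p = 0.00922). Ephx1, like Hmox1, thus had 3 groups that did not overlap, in the order Matrigel, fibrillar, non-fibrillar. The carbonyl reductase Cbr3 was 1.13-fold lower (-0.17 ± 0.038, adjusted p = 0.0491, and 0.0806 under the replicate block), and it lost the call whichever collagen array was left out. Akr1b8, an aldo-keto reductase, passed under the block (-0.23, adjusted p = 0.0416, and 0.0502 without it). Ephx1 lost its call between the collagens without fibrillar replicate 2 or 3 or non-fibrillar replicate 1 or 2 (adjusted p up to 0.0562), and Ces2g without fibrillar replicate 3 or non-fibrillar replicate 2 (up to 0.0600). The medians of this list were 0.0050, -0.090 and -0.085 for fibrillar against non-fibrillar collagen, fibrillar collagen against Matrigel and non-fibrillar collagen against Matrigel.

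Of 12 partners, competitors and regulators of NRF2, all measured, 0 passed between the collagens in limma, where 6.4% of all genes did. In fibrillar collagen against Matrigel 0 passed, where 3.82% of all genes did. At an unadjusted limma p under 0.05 there were 5 and 1 of the 12 in these comparisons. Between the collagens at least 4256 of the 19938 genes lay under that cut, the rank by p of Prdx1 at 0.0485. In fibrillar collagen against Matrigel fewer than 3727 did, the rank of Txn2 at 0.0528. The exact shares were not counted, and whether the list exceeded them was not tested. With the replicate block the small MAF protein Maff passed between the collagens (-0.39, adjusted p = 0.0245, and 0.0514 without the block). In non-fibrillar collagen against Matrigel 3 were higher, 1 lower and 8 did not pass, beside 6.75% of all genes higher and 7.07% lower. Maff, a dimer partner of NRF2, was 1.32-fold higher (7.84, 7.62 and 7.65 against 7.42, 7.28 and 7.19 in Matrigel, 0.40 ± 0.087, adjusted p = 0.0125). The related factor Nfe2l3 (0.25 ± 0.067) and Rbx1, the RING subunit of the CUL3 ligase (0.22 ± 0.052), were higher, and Nfe2l1, a cap'n'collar relative of NRF2, was lower (-0.18 ± 0.042). All 4 calls depended on single arrays. Maff lost its call without Matrigel replicate 2 or 3 and Rbx1 without non-fibrillar replicate 3 or Matrigel replicate 1 or 3. Nfe2l1 lost it without non-fibrillar replicate 2 or 3 or Matrigel replicate 2 or 3, and with centring on array medians. Nfe2l3 lost it without replicate 1 or 3 of either group and with only the 6 arrays compared. Adjusted p over those refits reached 0.0502, 0.0719, 0.0651 and 0.114 for Maff, Rbx1, Nfe2l1 and Nfe2l3.

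**Figure D3:**
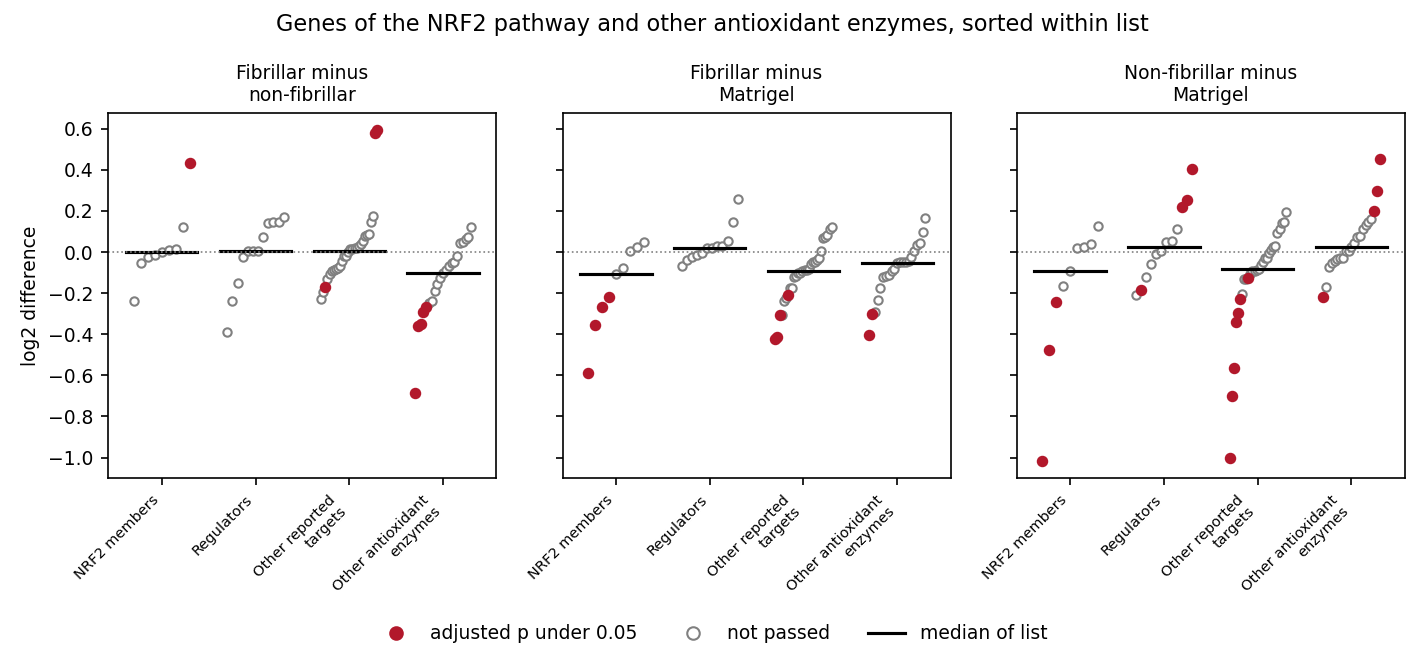
Log2 differences of the 9 measured NRF2 pathway genes, 12 regulators, 28 other reported targets and 21 other antioxidant enzymes in the 3 comparisons, sorted within each list, with the list median as a line. Filled points passed an adjusted p of 0.05, and the lowest points in non-fibrillar collagen minus Matrigel are Hmox1 at -1.02 and Ephx1 at -1.

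Antioxidant enzymes not classed here as NRF2 targets, 21 measured of 22, had 5 genes lower in the fibrillar form of collagen than in the non-fibrillar form, 0 higher and 16 that did not pass, beside 3.69% of all genes lower and 2.71% higher. The median difference was -0.10. Extracellular superoxide dismutase Sod3 read 6.82, 6.88 and 6.77 in fibrillar against 7.41, 7.54 and 7.58 in non-fibrillar collagen, 1.61-fold lower (-0.69 ± 0.056, adjusted p = 0.00495), and kept its call under all 14 alternatives. Glutathione peroxidase Gpx1 was 1.28-fold lower (-0.36 ± 0.045), Gpx8, a peroxidase of the endoplasmic reticulum, 1.27-fold (-0.35 ± 0.048), peroxiredoxin Prdx4 1.22-fold (-0.29 ± 0.045) and glutathione synthetase Gss 1.20-fold (-0.26 ± 0.047). Gpx1 lost its call without fibrillar replicate 2 or 3 or non-fibrillar replicate 2 (adjusted p up to 0.0625), and Gpx8, Prdx4 and Gss when any collagen array but fibrillar replicate 1 was left out (up to 0.0736, 0.0807 and 0.102).

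In fibrillar collagen against Matrigel 2 of the 21 were lower, Gpx1 (-0.40 ± 0.044, 1.32-fold, adjusted p = 0.00132) and Gss (-0.30 ± 0.054, 1.23-fold, adjusted p = 0.0156), and 0 were higher, where 3.82% of all genes passed in either direction. Gss lost this call without fibrillar replicate 2 or 3 or Matrigel replicate 3 (up to 0.0603). In non-fibrillar collagen against Matrigel Sod3 (0.45 ± 0.070), Gpx8 (0.30 ± 0.052) and Prdx4 (0.20 ± 0.058, adjusted p = 0.0498) were higher and the mitochondrial superoxide dismutase Sod2 was lower (-0.22 ± 0.045), 4 of 21 where 13.8% of all genes passed. Prdx4 lost its call when any array of these groups but Matrigel replicate 1 was left out, and with only the 6 arrays compared (up to 0.161). The list medians were -0.051 and 0.026 in these comparisons. Gpx1 read 10.75, 10.64 and 10.67 in fibrillar collagen, 10.99, 11.05 and 11.09 in non-fibrillar collagen and 11.1, 11.07 and 11.1 in Matrigel, so its low group was the fibrillar form, whereas the lowest group of Hmox1 was the non-fibrillar form.

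The genes outside the set with the closest pattern were found for the 3 members with the widest span of group means, by Pearson's r over the same 9 arrays among 1918 genes whose group means spanned at least 0.3. These r values describe arrays that share groups and replicate numbers. For Hmox1, with a span of 1.02, they were Gla, the lysosomal alpha-galactosidase (r = 0.997), Ankrd13b (0.991) and Atp13a4 (0.990). Gla averaged 10.5 in fibrillar collagen, 10.16 in non-fibrillar collagen and 10.91 in Matrigel. For Slc7a11, with a span of 0.48, they were Ern1, the endoplasmic reticulum stress sensor IRE1 (r = 0.990), Hmbox1 (0.983) and Perp (0.983). For Gclm, with a span of 0.27, they were the riboflavin transporter Slc52a3 (r = 0.972), the keratin Krt6a (0.962) and the peroxisomal protein Pex11a (0.961). Among the members, Hmox1 and Slc7a11 had r = 0.943 over the 9 arrays and 0.271 after the group means were removed.

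**Figure D4:**
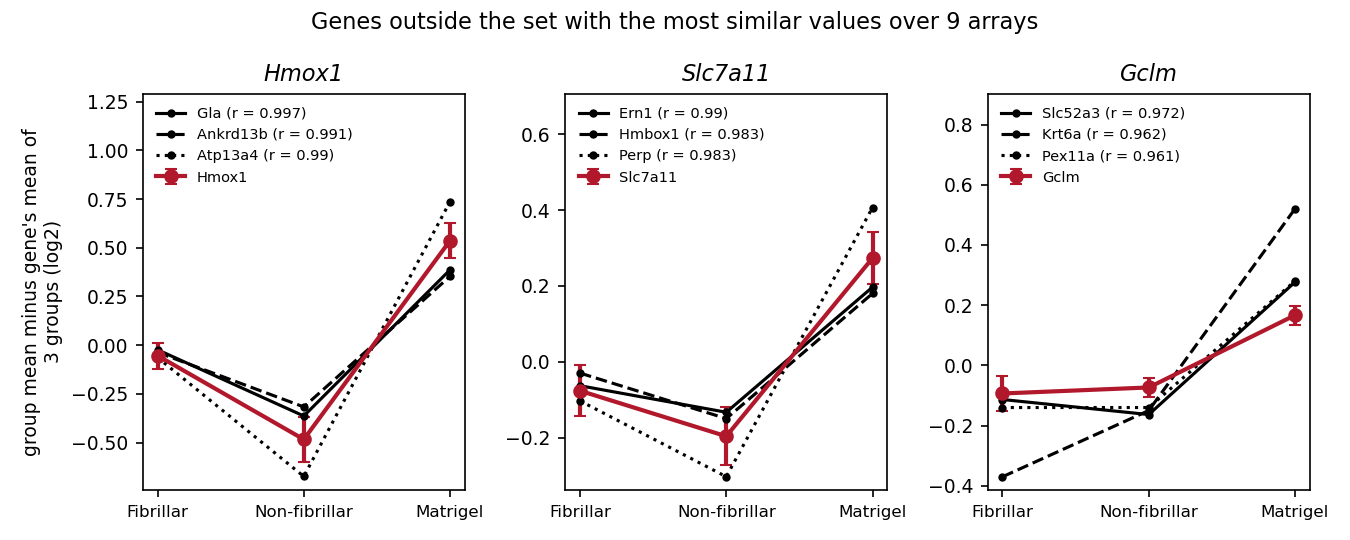
Group means of Hmox1, Slc7a11 and Gclm (red, with SD of 3 arrays) and of the 3 genes with the highest Pearson's r to each, as log2 differences from each gene's mean of the 3 groups. In the left panel Hmox1 and its 3 closest genes are lowest in non-fibrillar collagen and highest in Matrigel, and lines join groups only to guide the eye.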

How the data were processed

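Each deposited column holds log2 values, 1 per probe set. The submitters' processing notes name Affymetrix Power Tools and RMA. The software version, and whether the 9 arrays went through RMA as 1 set, is not given in the sources used here. RMA draws arrays towards 1 distribution, which can hide a shift shared by most genes, and can understate fold changes of dim probe sets. Of 35512 probe sets, 21789 had a single gene symbol, 1621 several and 12102 none, and 21698 of the first kind matched a current gene identifier. The probe set with the highest mean represented each of 19938 genes, and each member measured had only 1. No filter, floor or rescaling was applied. Precision is limited by having 3 arrays per group.

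The collagen forms were compared in limma 3.58.1 (R 4.3.3) with their own 6 arrays, and each with Matrigel in 1 fit of all 9, two-sided. Errors are limma's standard errors with 3 arrays per group. Same-numbered collagen arrays deviated together (r = 0.221, 0.143 and 0.242 across genes), so a pairing by number rests on the data alone. The fits reported do not use that pairing, and the replicate block, given as an alternative, does. Between the collagens the block changed the calls of Nqo1, Akr1b8, Maff and Cbr3. Against Matrigel some pairs fell under 0.1. Members, lists and rules were chosen with earlier results of these data known. Named list genes are the calls of each list, at most 6 per comparison by smallest p, and likeness was Pearson's r as described. Alternatives were other arrays in the fit, a replicate block, 2 rescalings, a filter at a mean of 6, averaged probe sets, other priors and weights, and leaving out each array of the groups compared.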

Additional observations from a re-analysis of the deposited data

How the results depend on the processing

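Of 378 refitted differences of the 9 genes, 326 kept their direction and side of the threshold, 14 lost a call, 8 gained one and 30 changed sign, none of the 30 with a call. Hmox1, Slc7a11 and Gclm kept their calls against Matrigel in both collagens under all 14 alternatives, and with only 3 arrays per group small differences stay within the intervals given. Between the collagens the number of genes called was 1 and became 2 with all 9 arrays, the replicate block, centring, the filter on dim genes or the trended robust prior, Nqo1 being the addition, and 0 to 1 when an array was left out. Across the 3 groups 5 passed, 3 after quantile normalization again and 3 to 4 without an array. The regulators called between the collagens, 0 in the fit reported, were 4 with all 9 arrays or the filter and 3 with the trended prior. They were 2 with either rescaling and 1 with the replicate block or array weights. Against Matrigel in fibrillar collagen they were 1 with quantile normalization or the filter. The calls over all genes changed too. Between the collagens they were 1277 of 19938 in the fit reported, 1765 with all 9 arrays and 1692 with the trended prior. They were 1252 with quantile normalization, 1389 with centring, 1285 with the block, 1310 with array weights, and 2111 of fewer genes with the filter. Other targets called between the collagens were 5 with the filter, and 0 to 2 without an array. Other antioxidant enzymes in fibrillar collagen against Matrigel were 4 with the filter or the trended prior. Over all genes the calls in that comparison were 762 in the fit reported, 739 with quantile normalization, 1211 with the filter and 1000 with the trended prior. Leaving out an array gave 1 to 5 other antioxidant enzymes between the collagens, 1 to 2 against Matrigel in fibrillar collagen, 2 to 4 other targets there, and 1 to 4 regulators in non-fibrillar collagen against Matrigel. Over all genes it gave 150 to 569 between the collagens and 353 to 513 in fibrillar collagen against Matrigel. In non-fibrillar collagen against Matrigel it gave 1814 without Matrigel replicate 2. Against Matrigel the block ended 2 of the calls named in the text, Srxn1 in fibrillar collagen (adjusted p = 0.0528) and Slc3a2 in non-fibrillar collagen, for which not every pair of numbers deviated together. The causes were not tested. The filter tests fewer genes, with limma fitted to those alone, and leaving out arrays leaves fewer samples.

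Sign changes between the collagens were Gclm (0.024) and Keap1 (0.0063) with quantile normalization again, Gclc (-0.0089), Txnrd1 (-0.012) and Nfe2l2 (-0.022) with centring, and Txnrd1 (-0.0003) with array weights. Against Matrigel they were Keap1 (-0.0038) in fibrillar collagen with array weights, and Nfe2l2 in non-fibrillar collagen with quantile normalization (-0.0059) and array weights (-0.0007). Without an array the collagen difference ran from -0.0186 to 0.0535 for Gclc, -0.0435 to 0.0112 for Gclm, -0.0465 to 0.0271 for Keap1, -0.0342 to 0.0441 for Nfe2l2 and -0.0621 to 0.075 for Txnrd1. In fibrillar collagen against Matrigel it ran from -0.0287 to 0.0347 for Keap1, -0.0171 to 0.068 for Nfe2l2 and -0.0098 to 0.0984 for Txnrd1. In non-fibrillar collagen against Matrigel it ran from -0.0231 to 0.0498 for Keap1, -0.0179 to 0.0669 for Nfe2l2 and -0.0276 to 0.109 for Txnrd1. Over all genes the number called between the collagens was 1277, 2111 with the filter and 150 to 569 without an array. In fibrillar collagen against Matrigel it was 762, 1211 with the filter, 460 with only the 6 arrays and 353 at least without an array. In non-fibrillar collagen against Matrigel it was 2755, and 1814 without Matrigel replicate 2.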

Other observations

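The 3 Matrigel values of Keap1 lay within 0.00013 log2 units of each other, although the SD of this gene was 0.0635 in fibrillar and 0.0745 in non-fibrillar collagen. Other genes had values as close. In fibrillar collagen 509 of 19938 genes (2.55%) had 3 values within 0.001 log2 units, in non-fibrillar collagen 624 (3.13%) and in Matrigel 440 (2.21%). Such genes had a median level near 5 (5.05, 5.01 and 5.07), below the 6.44 of all genes, and 35, 36 and 35 of them averaged 8 or more, as Keap1 does. Keap1 in Matrigel was the only such case among the 9 NRF2 pathway genes, and the reason was not tested.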
